A study of Mus musculus with 3 samples.

Results

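The transcription factors Pax5 and Ebf1 and 7 genes tied to them in the B lineage were examined in sorted mouse pre-B cells. The 9 genes (Pax5, Ebf1, Cd79a, Cd79b, Blnk, Bst1, Vpreb3, Pou2af1 and Zfp521) were taken by symbol from the 26286 Entrez genes of the deposited count table, and each matched 1 row. They were named for their known place in the B lineage, without a threshold on any measured value, at a time when earlier results of these data were known. RNA-seq libraries were made from 3 bone marrow samples of 1 group, and no second condition was set against it. The donors were CAG-rtTA3;TRE-GFP-shLuc.1309 bitransgenic mice, in which the broadly active CAG promoter drives a doxycycline-dependent transactivator. That transactivator switches on GFP together with a control hairpin. All donors had doxycycline for 3 days, so every library carries the drug, the transactivator and the hairpin. Cells were sorted as GFP+, B220+, CD25+, IgM- and Kit-.

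Ebf1 and Pax5 act in sequence in B-cell development. Ebf1, switched on under E2A, Foxo1 and IL-7 receptor signals, opens B-lineage genes and activates Pax5, and Pax5 in turn sustains Ebf1, activates genes of the pre-B receptor pathway and represses genes of other lineages. Cd79a and Cd79b encode the signalling chains of that receptor, Blnk the adaptor that couples it to downstream enzymes, and Pou2af1 the coactivator of octamer-binding factors. Vpreb3 encodes a protein that associates with immunoglobulin chains inside the cell, and Bst1 the surface enzyme CD157. Zfp521 differs in kind: it encodes a zinc finger protein known to bind Ebf1 and block its activity, so the word target does not describe it.

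Promoter sequence was matched for 6 of the 9 genes (Pax5, Ebf1, Cd79a, Blnk, Vpreb3 and Pou2af1) in 7 windows from RefSeq on GRCm38.p6, each reaching from 250 bases before to 50 bases after a transcription start. The windows were searched on both strands for the core of the Ebf1 motif, CCCNNGGG, for the same core with 1 changed base, CTCNNGGG, for the octamer ATTTGCAT and for the E-box CAGGTG. The 3 promoters that held a match are shown 5′ to 3′ on the gene's strand, upstream bases only, with matches in capitals. The Cd79a stretch is chr7:24897247-24897496 on the plus strand, that of Vpreb3 is chr10:75948050-75948299 on the plus strand, and that of Blnk is chr19:40994222-40994471 on the minus strand.
Cd79a: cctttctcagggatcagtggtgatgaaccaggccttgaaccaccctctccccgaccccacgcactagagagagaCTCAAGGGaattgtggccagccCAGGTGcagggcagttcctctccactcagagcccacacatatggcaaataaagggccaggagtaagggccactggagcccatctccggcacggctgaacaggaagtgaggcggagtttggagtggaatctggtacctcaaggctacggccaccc
Vpreb3: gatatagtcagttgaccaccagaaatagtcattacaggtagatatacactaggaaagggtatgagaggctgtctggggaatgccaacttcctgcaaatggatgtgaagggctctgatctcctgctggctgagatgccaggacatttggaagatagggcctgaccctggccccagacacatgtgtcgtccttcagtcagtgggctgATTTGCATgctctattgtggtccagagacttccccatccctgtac
Blnk: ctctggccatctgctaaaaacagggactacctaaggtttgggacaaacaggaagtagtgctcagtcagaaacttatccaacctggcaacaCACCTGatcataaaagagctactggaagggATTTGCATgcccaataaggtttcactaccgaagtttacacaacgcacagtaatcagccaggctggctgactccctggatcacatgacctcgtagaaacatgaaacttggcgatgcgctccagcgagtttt

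In the Cd79a promoter the changed Ebf1 core stood at -176 to -169 from the start site and the E-box at -154 to -149. The octamer stood at -45 to -38 in Vpreb3 and at -130 to -123 in Blnk, and Blnk also held the E-box, on the other strand, at -160 to -155. The octamer was thus in 2 of the 7 windows, against 1.74% of all 32851 windows of that length in the RefSeq table. The E-box was also in 2 of 7 (20.2% of all windows), the changed Ebf1 core in 1 of 7 (24.6%) and the unchanged core in 0 of 7 (13.7%). None of these motifs overlapped another in the 7 windows. These are letters in a window, and no binding was measured in this series.

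The libraries held 12418054, 12021576 and 32086649 counts in replicates 1, 2 and 3, so counting error was smallest in replicate 3. Whether each came from a separate mouse is not given. Replicate 1 differed from the others in donor sex, since Xist had 22609 counts there against 94 and 70 and Ddx3y 1 count against 1950 and 4881, so its donor was another animal. For replicates 2 and 3 the spread may be technical, and sex cannot be told apart from replicate 1 itself in any of its differences below. Of the sort markers, Il2ra (CD25) at 89.3 ± 17.7 RPKM and Kit at 0.791 ± 0.327 RPKM matched the label (SD, n = 3). Ptprc stood at 107 ± 9.09 RPKM, but counts of the whole CD45 gene cannot show its B220 form. RPKM is the read count scaled to gene length (per kilobase) and to the library total. All 7 pre-B stage markers exceeded 1 RPKM in every library, beside 11146 of the 17423 genes with a count. Of these markers Ighm and Igkc were highest. Ighm, at 6749 ± 498 RPKM the highest of all genes, is transcribed in pre-B cells before IgM reaches the surface. Markers of T and NK cells were near 0, with a sum over 10 genes of 6.16 to 6.85 RPKM (Klrb1c and Nkg7 highest). Neutrophil markers were not: the sum over 12 genes was 1382, 1663 and 2441 RPKM in replicates 1, 2 and 3, led by S100a9 and S100a8.

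Of the 9 genes 8 were high and 1 was near 0. Over the 3 libraries Cd79b and Vpreb3 ranged from 1041 to 1358 RPKM and Cd79a and Pou2af1 from 681 to 754 RPKM. Blnk, Pax5 and Ebf1 followed at 173 to 287 RPKM and Bst1 at 49.98 to 60.1 RPKM, whereas Zfp521 stayed below 0.2 RPKM. Their counts summed to 0.649%, 0.667% and 0.619% of the total in replicates 1, 2 and 3. In mean level, 8 of the 9 were among the highest 10% of the 17423 genes with a count, and the median of the 9 was 8.01 on the log2(RPKM + 0.5) scale, against 2.56 over all those genes. Since the genes were named for their place in B cells, this is a description and not a test.

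**Figure D1:**
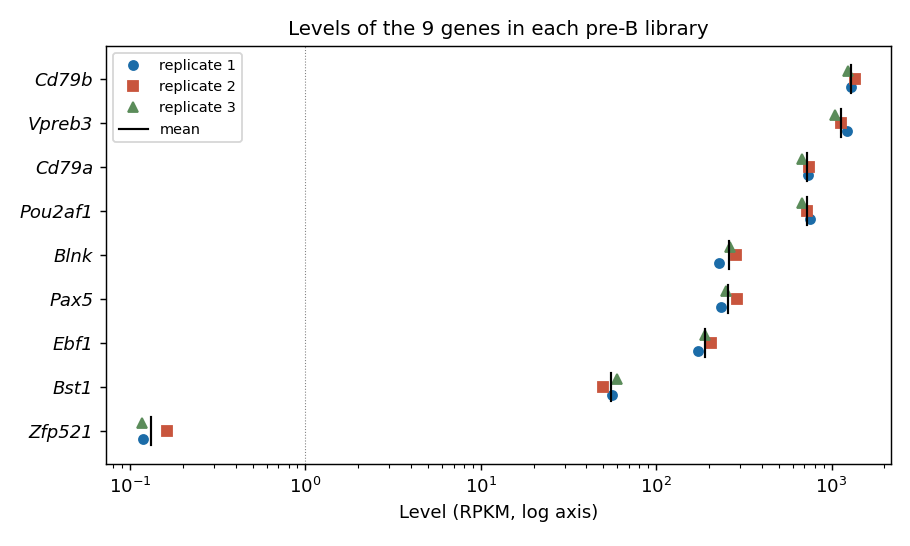
Level of each of the 9 genes in each of the 3 libraries, in RPKM on a log axis, with the mean over libraries as a black bar and a dotted line at 1 RPKM. The 8 genes to the right lie between 49.98 and 1358 RPKM in every library, and Zfp521 lies between 0.116 and 0.163 RPKM.

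Pax5 (Entrez 18507), the factor that commits cells to the B lineage, had 3520, 4158 and 9660 counts, or 235, 287 and 249 RPKM in replicates 1, 2 and 3. Its mean was 257 ± 27.3 RPKM (SD, n = 3), rank 201 of the genes with a count. Ebf1 (Entrez 13591) had 4821, 5534 and 13710 counts, or 173, 205 and 190 RPKM, with a mean of 189 ± 16.4 RPKM and rank 306. For both factors replicate 2 was highest and replicate 1 lowest. The difference between them was steadier than either level, but its direction rests on the gene length used. With the deposited lengths Pax5 exceeded Ebf1 by 0.44, 0.48 and 0.39 on the log2(RPKM + 0.5) scale in replicates 1, 2 and 3, a mean of 0.44 ± 0.046 or 1.35-fold. CPM, counts scaled to the library total with no length, put Pax5 below Ebf1 in every library, with a mean difference of -0.46 ± 0.046 on the log2(CPM + 0.5) scale. CPM takes no account of length, so by itself it cannot rank the transcripts of 2 genes. The deposited lengths came with the counts, but the annotation behind them is not given. Which of the 2 has more transcripts is therefore not settled by these counts. With 3 libraries the smallest two-sided p of an exact sign-flip test is 0.25, so none of the 10 gene pairs compared could pass 0.05, and each of them had p = 0.25 (0.25 after Benjamini-Hochberg adjustment).

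The gene length behind these levels differs from later annotation. The deposited length of Pax5 is 1208 bases, 13.7% of its exon bases in GENCODE vM21. It is also below the 1397 bases that are coding in any annotated transcript, a union and not the coding length of 1 transcript. The deposited length of Ebf1 is 2248 bases, 23.0% of its exon bases. For Blnk the share is 35.0%, for Vpreb3 70.1% and for Bst1 70.4%, whereas Cd79b, Zfp521, Cd79a and Pou2af1 lie between 83.7% and 100.7%. With exon bases of that annotation in place of the deposited length, Pax5 stood at 35.0 ± 3.72 RPKM and Ebf1 at 43.6 ± 3.78 RPKM (SD, n = 3), a difference of -0.31 ± 0.046 on the log2(RPKM + 0.5) scale with Ebf1 higher in every library. Which length fits the reads counted was not tested. If reads were counted over the deposited length alone, the exon bases are too long a divisor for them. Exons of Pax5 overlap 2 genes on the opposite strand (Gm12462 and 5730488B01Rik) and those of Bst1 overlap Fbxl5. Whether counting used strand is not given, so reads from such stretches cannot be told apart.

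Relatives of both factors were almost silent. Of the other 8 Pax genes, 6 (Pax1, Pax2, Pax3, Pax4, Pax8 and Pax9) had no count in any library, and Pax6 and Pax7 had 1 count each, in replicate 3. A count of 0 allows up to 3 counts, for Pax2 up to 0.2001 RPKM, which makes Pax5 at least 1215-fold higher than Pax2 in each library. Of the Ebf family, Ebf2 and Ebf3 had no count, and Ebf4 had 1 count in each of replicates 2 and 3. Ebf1 was at least 3104-fold higher than Ebf2 and at least 3591-fold higher than Ebf3 in each library. These limits cover counting error only.

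Zfp521 (Entrez 225207), the Ebf1 antagonist, had 9, 12 and 23 counts in replicates 1, 2 and 3. Its levels of 0.118, 0.163 and 0.116 RPKM carry exact Poisson 95% intervals of 0.0539 to 0.224, 0.0841 to 0.284 and 0.0737 to 0.174 RPKM, which overlap. The mean was 0.132 ± 0.026 RPKM, the 19.6th percentile of genes with a count. Ebf1 stood 1466-, 1262- and 1631-fold above it in RPKM in the 3 libraries. Its paralog Zfp423, which also binds Ebf factors, had no count, which allows up to 0.0510 RPKM. The lower end of the Zfp521 interval lay above that limit in each library, in replicate 1 only narrowly. Zfp521 is known from stem and early progenitor cells, and of 10 markers of these cells 2, Mecom among them, had no count and 2 (Cd48 and Meis1) exceeded 1 RPKM in every library. The summed level of that list was 82.7, 88.1 and 91.5 RPKM, almost all of it from Cd48, which lymphoid cells also express. Its part in the Zfp521 level was not tested.

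The signalling chains of the pre-B receptor were among the highest genes of the transcriptome. Cd79b (Entrez 15985) had 1299, 1358 and 1234 RPKM in replicates 1, 2 and 3, a mean of 1297 ± 62.2 RPKM and rank 12. Cd79a (Entrez 12518) had 737, 744 and 682 RPKM, a mean of 721 ± 33.9 RPKM and rank 44. In both, replicate 2 was highest and replicate 3 lowest. The proteins pair as a heterodimer, but Cd79b transcripts exceeded those of Cd79a by 0.82, 0.87 and 0.85 on the log2(RPKM + 0.5) scale, a mean of 0.85 ± 0.027 or 1.80-fold. That SD was the lowest of the 10 gene pairs compared.

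Blnk (Entrez 17060), the adaptor downstream of these chains, had 227, 286 and 263 RPKM, a mean of 259 ± 29.5 RPKM and rank 197. As for Pax5 and Ebf1, replicate 2 was highest and replicate 1 lowest. Related adaptors were far lower. Lcp2 (SLP-76), its counterpart in T cells, stood at 2.26, 2.27 and 3.12 RPKM, so that Blnk exceeded it by 6.42 ± 0.26 on the log2(RPKM + 0.5) scale, 85.4-fold. Lat2, a membrane adaptor of B and myeloid cells, stood at 5.87 ± 0.65 RPKM and Lat, the T cell form, at 1.68 ± 0.33 RPKM. Clnk had 0, 0 and 6 counts.

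Vpreb3 (Entrez 22364) had 1231, 1135 and 1041 RPKM in replicates 1, 2 and 3, a mean of 1136 ± 94.7 RPKM and rank 18. It was highest in replicate 1 and lowest in replicate 3. The surrogate light chain gene Vpreb1 had the opposite order, at 20.1, 24.7 and 30.2 RPKM, as did its partner Igll1 at 27.7, 32.2 and 42.3 RPKM. Vpreb3 therefore exceeded Vpreb1 by 5.90, 5.50 and 5.08, a mean of 5.49 ± 0.41 on the log2(RPKM + 0.5) scale or 45.0-fold. Vpreb2 had 7, 10 and 23 counts, and its near identity to Vpreb1 leaves the split of reads between them uncertain.

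Pou2af1 (Entrez 18985) had 754, 727 and 681 RPKM, a mean of 721 ± 36.9 RPKM and rank 45, again highest in replicate 1 and lowest in replicate 3. The octamer-binding factors it works with were much lower. Pou2f2 (Oct-2) stood at 31.1, 30.5 and 24.9 RPKM and Pou2f1 (Oct-1) at 13.7, 15.3 and 15.03 RPKM, while Pou2f3 had no count. Pou2af1 exceeded Pou2f2 by 4.63 ± 0.11 on the log2(RPKM + 0.5) scale, 24.7-fold, and Pou2f1 by 5.57 ± 0.14, 47.5-fold.

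Bst1 (Entrez 12182) had 1629, 1399 and 4514 counts, or 56.1, 49.98 and 60.1 RPKM, a mean of 55.4 ± 5.08 RPKM and rank 1548. It was the only one of the 8 higher genes with its highest value in replicate 3 and its lowest in replicate 2. Its paralog Cd38, the related surface enzyme, ran the other way, at 120, 138 and 86.5 RPKM. Bst1 was lower than Cd38 in every library, by -1.09, -1.46 and -0.52 on the log2(RPKM + 0.5) scale, with a mean of -1.02 ± 0.47 or 0.493-fold. Myeloid and stromal cells also carry CD157. The summed neutrophil level, which S100a8 and S100a9 dominate, was likewise highest in replicate 3 but lowest in replicate 1. Of the 12 markers 9 were highest in replicate 3, against 4265 of all 12147 genes. The stromal genes Col1a1 and Col1a2 were instead highest in replicate 2, with 87 and 43 counts against at most 27 and 3 elsewhere. Over the 10 stroma and endothelium genes the summed level was 80.6, 99.4 and 68.3 RPKM. Almost all of it came from the 1 gene Pecam1 (79.1, 95.6 and 66.7 RPKM). Cdh5 followed at 1.37 ± 0.036 RPKM, and Pdgfra was at 0 throughout. The median of the 10 genes was 0.0157 RPKM, so the sum tells little about stromal or endothelial cells. The part of myeloid and stromal cells in the Bst1 level was not tested, and in bulk RNA fewer cells of a type and less RNA per cell cannot be told apart.

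In the order of the 9 levels by deposited length, 6 of the 8 neighbouring pairs kept their order in every library and 2 did not. Cd79a and Pou2af1 differed by 0.001 ± 0.033 on the log2(RPKM + 0.5) scale and changed order between libraries. Blnk and Pax5 differed by 0.011 ± 0.066, with Blnk higher only in replicate 3. Cd79b exceeded Vpreb3 by 0.19 ± 0.10, and in replicate 1 by only 0.078. The widest step was from Bst1 to Zfp521. Other length scales changed the order. By CPM, Pou2af1 came first (1849), before Cd79b (1554), Cd79a (957) and Vpreb3 (684). By exon length of GENCODE vM21, Pax5 fell below both Ebf1 and Bst1 (39.0 ± 3.58 RPKM), though its SD overlapped that of Bst1. Cd79b exceeded Cd79a, and Blnk exceeded Ebf1, in mean level on all 3 scales.

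Shifts between libraries were small and fell into 3 patterns. Pax5, Ebf1 and Blnk were low in replicate 1, by -0.13, -0.13 and -0.18 from the gene's mean log2 RPKM, and high in replicate 2, by 0.17, 0.12 and 0.15. Cd79a, Cd79b, Pou2af1 and Vpreb3 were lowest in replicate 3, by between -0.12 and -0.071. Bst1 followed neither, at 0.024, -0.14 and 0.12. Of the 28 differences among the 8 genes, 5 had an SD over libraries below 0.05 log2 units: Cd79a with Cd79b, Cd79a with Pou2af1, Ebf1 with Blnk, Pax5 with Ebf1, and Vpreb3 with Pou2af1. The greatest SD, 0.27, was that of Pax5 with Bst1. The share of such pairs over all genes was not computed, so whether 5 of 28 is many was not tested. Cd79a, Cd79b and Pou2af1 each had an SD of only 0.069 to 0.074 by themselves, which leaves little room for a wide difference between them. With 3 libraries, which also share depth and preparation differences, no correlation was computed.

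**Figure D2:**
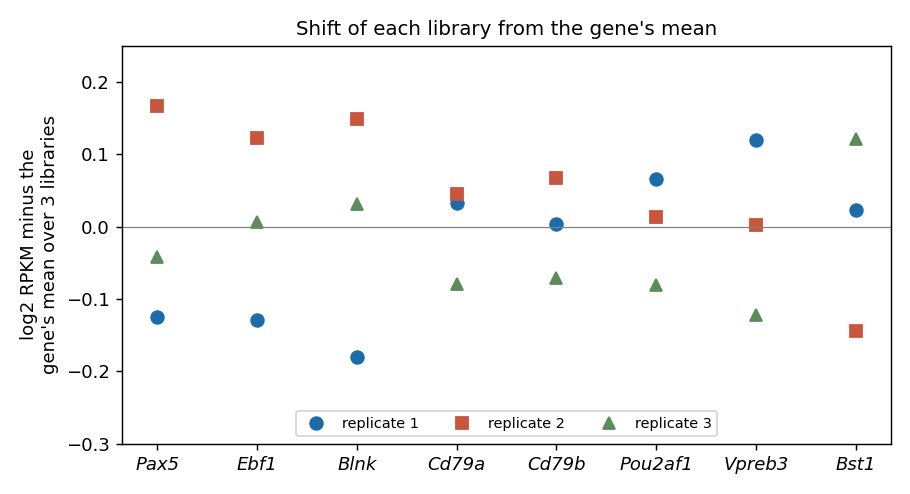
Log2 RPKM of each gene in each library minus the gene's mean over the 3 libraries, for the 8 genes above 1 RPKM. Pax5, Ebf1 and Blnk have replicate 2 on top and replicate 1 at the bottom, the next 4 genes have replicate 3 at the bottom, and Bst1 has replicate 3 on top.

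The spread was then set against counting noise and against other genes. Of the 9 genes, 8 passed the filter on low counts and Zfp521 did not. Counts of all 8 varied beyond Poisson noise (chi-square test over the 3 libraries, Benjamini-Hochberg adjusted p from 1.45e-41 for Pou2af1 to 5.96e-08 for Bst1), against 54.6% of the 12147 genes tested. Higher counts make smaller differences detectable, and among the 1742 tested genes of the highest 10% by level the share was 75.7%. The call on Bst1 was lost without replicate 2 (adjusted p = 0.0576) and that on Cd79a without replicate 3 (adjusted p = 0.669).

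No gene of the 8 stood out for its spread. A quasi-likelihood fit in edgeR with an intercept alone, which compares each gene's spread with that of genes of like level, called 0 of the 8, against 0.0165% of all genes tested. None had an unadjusted p under 0.05 (the lowest was 0.215, for Blnk), and a robust fit also called 0. The SD over libraries was between 4.69% of the mean for Cd79a and 11.4% for Blnk, with a median of 8.50% over the 8 genes, against 9.76% over all 12147 genes and 6.53% over those of the highest 10% by level.

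**Figure D3:**
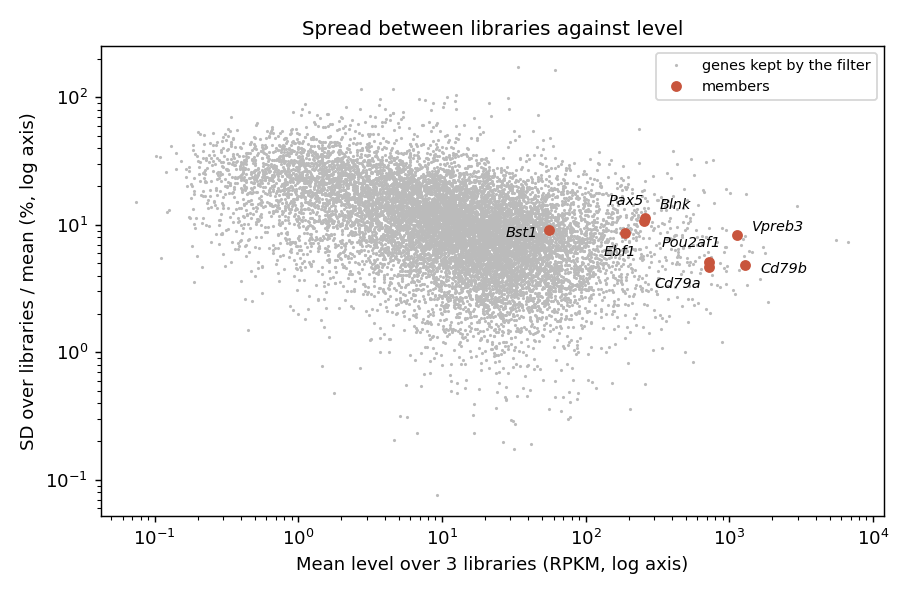
SD over the 3 libraries as a percentage of the mean, against the mean level in RPKM, both on log axes, for the 12147 genes that passed the filter (grey) and the 8 members among them (red). Cd79a, Cd79b and Pou2af1 lie near 5% and Blnk and Pax5 near 11%, within the cloud of genes of like level.

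Replicate 3 was also the only library processed with CASAVA 1.8.0, the other two having version 1.8.2, so this version and the library itself cannot be told apart. In edgeR's quasi-likelihood test of replicate 3 against replicates 1 and 2, 0 of the 8 genes were called (0 at an unadjusted p under 0.05, and 0 with DESeq2), against 0.0741% of all genes tested. The log2 fold changes ran from -0.18 (SE 0.13, adjusted p = 0.701) for Vpreb3 to 0.18 (SE 0.12, adjusted p = 0.688) for Bst1. For Pax5 the value was -0.070 (SE 0.16) and for Ebf1 0.0038 (SE 0.15).

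Other genes known to be activated by Pax5 or Ebf1 were high as well, from a list written by hand. Of 29 such genes 27 exceeded 1 RPKM in every library, beside 11146 of the 17423 genes with a count. The median level of the 29, 6.22 on the log2(RPKM + 0.5) scale, compares with 2.56 over the whole table of counted genes. The highest were Cd24a, a surface glycoprotein gene (874, 959 and 998 RPKM), the ETS factor gene Spib (900, 857 and 846 RPKM), and Atp1b1, a sodium pump subunit gene (567, 712 and 432 RPKM). The lowest were Bcar3 (3.38 ± 0.98 RPKM), and Cr2 and Fcer2a, the CD21 and CD23 genes of mature B cells, at 0.244 ± 0.106 and 0.185 ± 0.032 RPKM. The list thus held known targets at both ends of the scale.

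Between libraries, 27 of the 28 targets that passed the filter differed by more than Poisson noise, all but Id3, beside 54.6% of all genes tested and 75.7% of those of the highest 10% by level. None of the 28 was called in the intercept-only fit (3 at an unadjusted p under 0.05) or in edgeR's test of replicate 3 against the others (6 at an unadjusted p under 0.05, and 0 called with DESeq2). Over all 12147 genes the counts at an unadjusted p under 0.05 were 644 and 1169. Replicate 2 was the highest library for 15 of these 28 targets and for 5 of the 8 genes described above, against 4430 of all 12147 genes. Atp1b1 had the widest range among the 3 highest targets, from 432 RPKM in replicate 3 to 712 RPKM in replicate 2.

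Factors that act upstream of Ebf1 and Pax5 were all detected. All 12 exceeded 1 RPKM in every library, beside 11146 of the 17423 genes with a count. Their median was 6.81 on the log2(RPKM + 0.5) scale. The E2A gene Tcf3 led (423, 402 and 443 RPKM), followed by Myb (331 ± 28.3 RPKM), Ikzf1 (265 ± 10.8 RPKM) and the IL-7 receptor gene Il7r (240, 225 and 181 RPKM). Stat5b (26.3 ± 1.03 RPKM), Runx1 (21.0 ± 0.99 RPKM) and Stat5a (12.8 ± 0.94 RPKM) were lowest. Of the 12, 11 differed by more than Poisson noise, beside the same 54.6% and 75.7%. None of the 12 was called in edgeR's test of replicate 3 against the others (2 at an unadjusted p under 0.05, and 0 with DESeq2), beside 0.0741% of all genes tested. Of the Groucho corepressor genes, whose products Pax5 recruits to repressed genes, Tle3 (33.9 ± 4.88 RPKM) and Tle4 (28.6 ± 1.79 RPKM) exceeded Tle1 (1.96 ± 0.49 RPKM) and Tle2 (1.10 ± 0.057 RPKM).

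**Figure D4:**
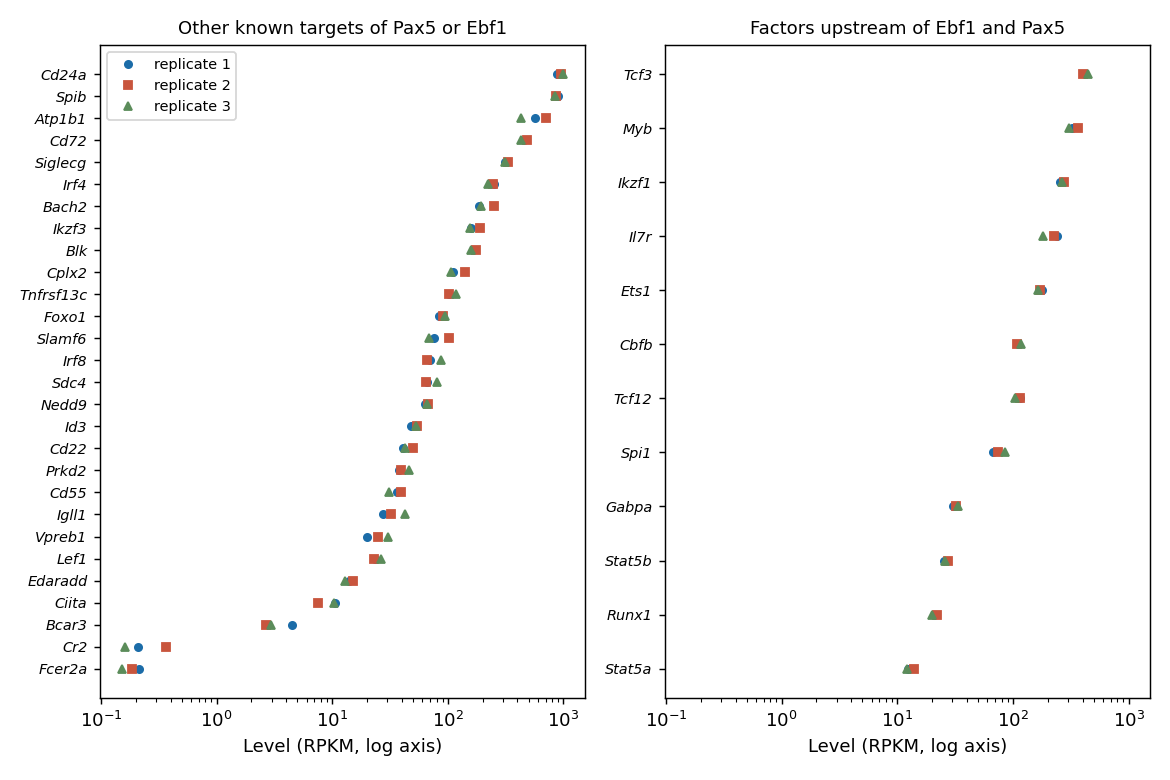
Levels in RPKM, on a log axis, of 28 of the 29 other known targets of Pax5 or Ebf1 (left) and 12 upstream factors (right) in each of the 3 libraries. Most targets lie above 10 RPKM, Cr2 and Fcer2a lie below 1, and all upstream factors lie above 10.

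Genes nearest to each factor were found by the Euclidean distance of log2(RPKM + 0.5) over the 3 libraries, among the 12147 genes tested. The nearest to Pax5 was Blnk, at a distance of 0.095, then Cerk, a ceramide kinase gene (235, 293 and 233 RPKM; 0.098), and Dazap2 (230, 270 and 256 RPKM; 0.104). The nearest to Ebf1 were Vars, a valyl-tRNA synthetase gene (176, 200.4 and 195 RPKM; 0.060), Sf3b1, a splicing factor gene (174, 194 and 195 RPKM; 0.090), and Cd74, the invariant chain gene (182, 196 and 192 RPKM; 0.105). The measure rests mainly on level by deposited length, since shifts between libraries were small.

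Markers of later stages gave the remaining context. Of 9 mature B cell genes 6 exceeded 1 RPKM in every library, beside 11146 of the 17423 genes with a count. Cd74 and H2-Ab1 led the list, and its summed level was 495, 501 and 515 RPKM. Of 6 plasma cell genes 3 exceeded 1 RPKM in every library (Irf4, Xbp1 and Sdc1 being above 30 RPKM), with a sum of 325, 317 and 303 RPKM. Most of that sum was Irf4 alone (252, 245 and 222 RPKM), and the lowest of the 6 genes averaged 0.0928 RPKM. Irf4 is also on the list of known Pax5 or Ebf1 targets above, so the sum is not particular to plasma cells. Both sums varied less between libraries than that of the neutrophil markers.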

How the data were processed

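Levels and spread were measured in 3 RNA-seq libraries of 1 group. The authors deposited raw read counts per Entrez gene with a gene length, summarised with featureCounts on mm9, per the submitters' processing notes. The aligner, the gene annotation and whether strand was used are not given in the labels or headers used here. Sample and series tables held the same counts.

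Symbols came from RefSeq (GRCm38.p6) by Entrez number, for 24176 of 26286 genes and for all genes of the lists. Counts were scaled by TMM (factors 0.9969 to 1.0028) and divided by the deposited length to give RPKM. filterByExpr (minimum count 10, minimum total 15) kept 12147 genes. Tests used edgeR 4.0.16 in R 4.3.3, with DESeq2 1.42.0 as an alternative and Benjamini-Hochberg adjustment over all genes tested (threshold 0.05). They were also run on simulated data, but the outcome, and with it their power, is not reported here. Exon lengths and overlaps came from GENCODE vM21 on GRCm38, for lengths and names only; CPM and these lengths were added as alternatives after the data were seen. Figures used matplotlib 3.10.9.

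The members and lists were chosen with earlier results of these data known. Named were the members, their relatives, the 3 highest and 3 lowest genes of the target list, the 4 highest and 3 lowest of the upstream list, the leading markers of each cell type, the sort genes and the 3 genes nearest to Pax5 and Ebf1. Stromal collagen genes and Id3 were named after their values were seen. The rule took 4 high targets, and 1 gene pair and a few listed genes are counted but not reported here by name.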

Additional observations from a re-analysis of the deposited data

How the results depend on the processing

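Member levels moved by less than the SD between libraries with DESeq2 size factors, with no TMM factors and with any replicate left out. Leaving out 1 of 3 libraries cannot move a mean by as much as their SD, so that part is no test. The TMM factors of 0.9969 to 1.0028 also left little room to move. As TPM, another unit, Pax5 stood at 609. All 10 gene differences kept their sign with pseudocounts of 0.1 and 1, with no TMM factors and with any replicate left out. These settings could not turn a sign, because each pair had the same sign in all 3 libraries. Pseudocount and library scaling also act on both genes of a pair alike. Of the 3 pairs of members, Pax5 minus Ebf1 turned to -0.46 by CPM and to -0.31 by exon length of later annotation, both tried after the data were seen, and the other 2 kept their sign. The pseudocount mattered most where Zfp521 takes part: Ebf1 minus Zfp521 was 8.23, 9.67 with 0.1 and 7.39 with 1 on the log2 scale. Ranked by CPM or among filtered genes alone, 7 members and not 8 were in the highest 10%, Bst1 falling to the 88.8th and 87.3rd percentile; by CPM Pax5 stood at the 96.7th and Ebf1 at the 98.0th. Over all genes, counts of calls moved more. The count beyond Poisson noise was 6627 and ranged from 3145 to 5590 with a replicate left out. The count more variable than like genes was 2 (644 at an unadjusted p under 0.05), 0 with a robust fit, 46 with all genes with a count, and 2 to 44 with a replicate left out. Replicate 3 against the others gave 9 calls (1169 at an unadjusted p under 0.05), 36 with DESeq2, 23 without TMM factors and 0 with all genes with a count; the causes were not tested. No member was called in the last 2 tests under any of these settings. Leaving out replicate 1 or 2 leaves 1 library in each arm and so gives no test of replicate 3: without replicate 2 the log2 fold change of Pax5 was 0.083 and that of Blnk 0.21. No paired analysis was possible because there is only 1 group. Depth limits Zfp521 most, whose 9 to 23 counts leave wide intervals.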
